A study of Rattus norvegicus with 9 samples.

Results

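The genes described here encode 10 acute phase plasma proteins, chosen by name: A2m, Orm1, Hp, Hpx, Crp, Fga, Fgb, Fgg, Lcn2 and Saa4. All 10 were found among the 17156 genes listed in the deposited tables. Liver RNA of 9 male Sprague-Dawley rats had been sequenced, with 3 rats in each of the normal, model and TA groups. Fibrosis was induced in the model and TA rats with CCl4 at 2 ml/kg as a 50% oil solution, by the intragastric route, 2 times a week for 9 weeks. The TA rats were afterwards treated with tormentic acid (TA), a plant triterpenoid, at 3 mg/kg for 6 weeks, and the normal rats had received saline in place of CCl4. All rats were fasted for 12 h before the livers were taken, and neither their age nor what the model rats were given during those 6 weeks is stated in the sources used here. GEO's labels describe the model and TA livers alike as a hepatitis stage. The study compared CCl4 with saline (Model VS Normal) and TA with no TA after CCl4 (TA VS Model), and the same 3 model livers serve both comparisons.

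The acute phase response is the change in the plasma proteins made by the liver during inflammation or injury. Hepatocytes secrete nearly all of these proteins. Interleukin 6 and related cytokines signal through the shared receptor subunit gp130 to STAT3, and interleukin 1 signals through NF-kB and C/EBP factors; both routes raise the transcription of positive acute phase genes, while negative acute phase genes such as albumin are lowered. Alpha-2-macroglobulin (A2m) is a broad protease inhibitor and the classical acute phase protein of the rat. Orosomucoid (Orm1) binds drugs and lipids, haptoglobin (Hp) binds free haemoglobin, hemopexin (Hpx) binds free heme and C-reactive protein (Crp) binds phosphocholine on damaged cells and microbes. Fga, Fgb and Fgg encode the 3 chains of fibrinogen, the precursor of the clot. Lipocalin 2 (Lcn2) withholds iron from bacteria by binding their siderophores and is also made by neutrophils and injured epithelia, and Saa4 is the constitutive serum amyloid A carried on high-density lipoprotein.

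The promoters of 7 of the 10 genes were matched in RefSeq promoter sequences of assembly GRCr8, and those of A2m, Hp and Saa4 were not analysed here. The 250 bases before the annotated start were searched on both strands for letters known from acute phase genes: TTCNNNGAA (the palindrome bound by STAT3), CTGGGAA (the type II interleukin 6 response element), TTGCNNAA (a C/EBP-type site) and an NF-kB-type site. No overlap between matches of different motifs was found in the sequences shown. Among 33465 rat promoters of the same length these letters were present in 7.67%, 9.56%, 9.22% and 1.3%. The fibrinogen promoters are shown because 2 of the 3 chains kept a nearly constant ratio over the livers, and that of Lcn2 because it was the gene with the largest difference between groups. Each sequence is written 5′ to 3′ on the gene's strand and ends at the base before the start, with matches in capitals.
Fga, chr2:170671919-170672168 (plus strand): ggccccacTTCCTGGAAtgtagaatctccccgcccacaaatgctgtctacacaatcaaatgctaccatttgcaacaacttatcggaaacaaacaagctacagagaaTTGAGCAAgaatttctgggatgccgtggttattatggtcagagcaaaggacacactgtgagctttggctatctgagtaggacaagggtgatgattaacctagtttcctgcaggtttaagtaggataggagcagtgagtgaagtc
Fgb, chr2:170700876-170701125 (minus strand): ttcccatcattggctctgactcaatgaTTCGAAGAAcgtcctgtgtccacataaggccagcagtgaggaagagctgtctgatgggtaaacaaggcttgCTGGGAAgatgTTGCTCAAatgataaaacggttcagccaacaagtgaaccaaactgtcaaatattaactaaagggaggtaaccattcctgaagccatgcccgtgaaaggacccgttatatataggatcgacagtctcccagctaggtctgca
Fgg, chr2:170652833-170653082 (plus strand): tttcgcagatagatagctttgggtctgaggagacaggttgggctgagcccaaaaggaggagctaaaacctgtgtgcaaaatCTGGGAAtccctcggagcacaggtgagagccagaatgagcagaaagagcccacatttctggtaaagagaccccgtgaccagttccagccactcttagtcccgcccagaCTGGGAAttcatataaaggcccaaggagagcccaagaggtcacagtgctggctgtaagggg
Lcn2, chr3:36081781-36082030 (minus strand): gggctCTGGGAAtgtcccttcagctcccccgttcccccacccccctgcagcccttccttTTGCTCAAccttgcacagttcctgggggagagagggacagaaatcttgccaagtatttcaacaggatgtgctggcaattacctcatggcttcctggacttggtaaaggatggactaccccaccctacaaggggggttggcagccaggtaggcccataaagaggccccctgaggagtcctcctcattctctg
The Fga promoter held TTCNNNGAA at 242 and TTGCNNAA at 144 bases before the start, counted to the first base of the match. A second annotated start of Fga held the TTGCNNAA match alone, at 162 bases. The Fgb promoter held TTCNNNGAA at 223, CTGGGAA at 152 and TTGCNNAA at 141 bases. In the Fgg promoter CTGGGAA was present at 169 and at 61 bases, and in that of Lcn2 CTGGGAA stood at 245 and TTGCNNAA at 191 bases. Orm1 and Hpx each held TTGCNNAA, at 123 and 200 bases. No match was found in the Crp window, and the NF-kB-type letters were found in none of these windows. A match gives letters only and says nothing about binding in these livers.

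The libraries held between 13156735 and 18090405 counted reads. The 50 genes with the most reads took 27.9% of the reads in model 1 (the model rat numbered 1) and between 40.4% and 45.7% in the other 8 livers. The 10 genes together took 2.06% of the reads in model 1 and between 3.45% and 4.89% in the others. Hepatocyte marker genes (Apob, Cps1, Tat, Hpd, Arg1 and Asgr1) were detected in every liver, at a summed level of 11217 to 13729 CPM (reads of a gene scaled to a common library size after TMM normalization) in the normal group, 1540, 8214 and 8783 CPM in model 1, 2 and 3, and 9788 to 13604 CPM in the TA group. Model 1 therefore stood apart from all other livers, and differences of the 10 genes that rest on it are also given without it. These are bulk samples, in which fewer hepatocytes and less RNA per hepatocyte cannot be told apart.

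Levels between genes were compared as FPKM, which divides by gene length. In the normal group Hp had the highest median level (14959.7 FPKM), followed by Hpx (4459), Fgg (1737), Fgb (1505), Fga (1346), Crp (808), Orm1 (746), Saa4 (129), Lcn2 (3.39) and A2m (0). The ranges of neighbouring genes did not overlap between Hp and Hpx, between Hpx and Fgg, and from Orm1 downwards. The 3 fibrinogen chains overlapped one another, as did Fga with Crp and Crp with Orm1. In the model group the order was the same down to Fga, after which came Orm1 (582), Crp (403), Lcn2 (229), Saa4 (126) and A2m. Lcn2 stood above Saa4 in the model medians, with a range of 20.3 to 317 FPKM that overlapped that of Saa4 (47.7 to 138). In the TA group Lcn2 was again below Saa4 without overlap, with medians of 17.0 and 180 FPKM.

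**Figure D1:**
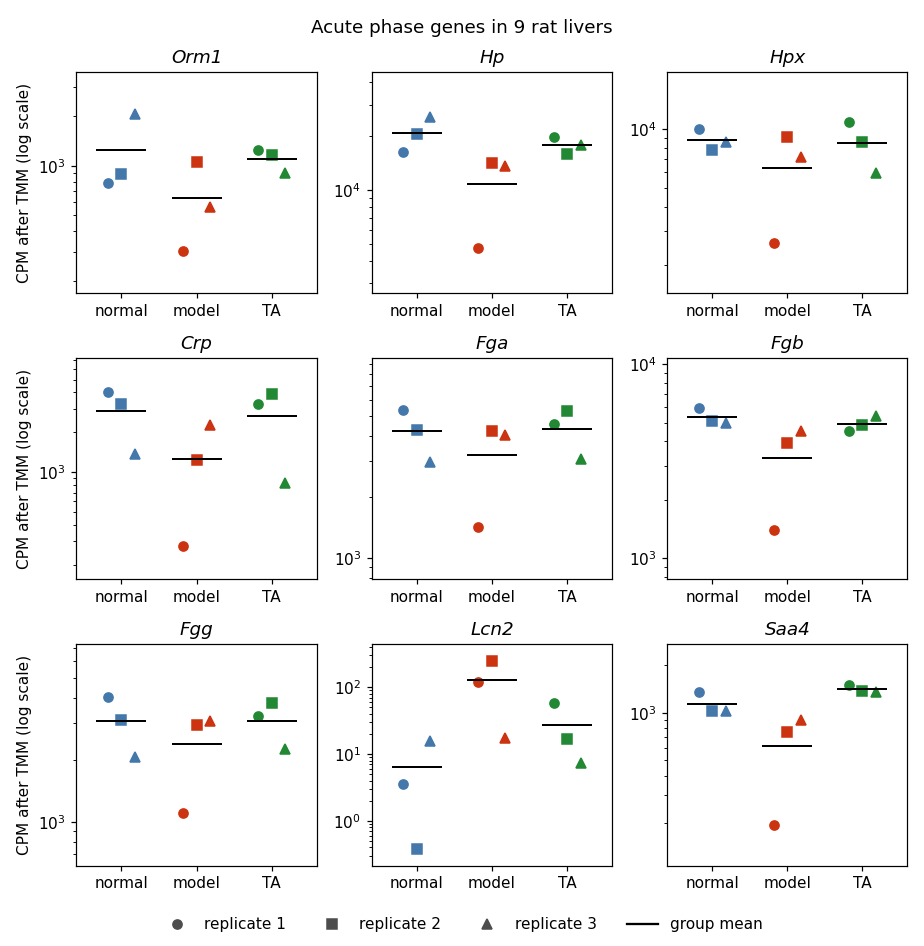
The points show the level of each gene in each liver, in CPM after TMM normalization on a log scale that differs between panels, for the normal, model and TA groups. Symbols mark the replicate number and the line is the group mean. Model 1 (circle) was the lowest of the 9 livers in every panel except that of Lcn2, which ran from 0.386 to 244 CPM.

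The protease inhibitor A2m was nearly absent from the counts. It had 1 read in model 1 and 1 read in model 3 and none in the other 7 livers. A count of 0 allows up to 3 counts, which in these libraries is 0.166 to 0.228 CPM by library totals, covering counting error only. The gene was therefore not tested, and no difference between groups was detectable at this depth. The related inhibitor Pzp, which belongs to the same family, was abundant in the same libraries, with 1419 to 5489.8 CPM. Whether reads of A2m were assigned to relatives of similar sequence was not tested.

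The acid glycoprotein gene Orm1 was at 790, 885 and 2058 CPM in normal 1, 2 and 3, at 304, 1056 and 564 CPM in the model livers and at 1242, 1165 and 903 CPM in the TA livers. Normal 3 was far above the other normal livers, and all 3 groups overlapped. The group means were 1245 ± 706, 641 ± 382 and 1104 ± 178 CPM (SD, n = 3). The log2 fold change was -0.95 (SE 0.62, adjusted p = 0.336) in Model VS Normal and 0.79 (SE 0.54, adjusted p = 0.476) in TA VS Model, from edgeR's quasi-likelihood test adjusted over all genes, which is also the source of every adjusted p that follows unless another tool is named. Without normal 3, the log2 fold change in Model VS Normal was -0.42.

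The haemoglobin scavenger Hp was the most abundant of the 10 in every group. Its levels were 16254, 20543 and 25453 CPM in the normal livers, 4763, 14144 and 13651 CPM in the model livers and 19863, 15796 and 17828 CPM in the TA livers. All 3 model livers lay below all normal and all TA livers in CPM. In FPKM the model livers (6829 to 13851) overlapped the normal (11642 to 17610) and the TA livers (12024 to 16749). The log2 fold change did not pass the test, at -0.93 (SE 0.83, adjusted p = 0.483) in Model VS Normal and 0.72 (SE 0.81, adjusted p = 0.668) in TA VS Model. The heme binder Hpx was at 10007, 7756 and 8553 CPM in the normal group, 2598, 9109 and 7217 CPM in the model group and 10867, 8539 and 5973 CPM in the TA group. Here model 2 lay within the range of the normal livers, and without model 1 the log2 fold change of Hpx in Model VS Normal moved from -0.47 (SE 0.72, adjusted p = 0.691) to -0.12. The Hp to Hpx ratio within a liver, from FPKM, ran from 2.06 to 3.96 over the 9 livers and from 2.06 to 2.51 in the model livers, and the exact permutation test gave p = 0.3 for Model VS Normal.

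The pentraxin gene Crp was at 4042, 3299 and 1373 CPM in the normal livers, 278, 1224 and 2274 CPM in the model livers and 3272, 3865 and 823 CPM in the TA livers. The rat numbered 3 was the lowest of its group in the normal and TA groups and the highest in the model group, so that the groups overlapped. The means were 2905 ± 1377, 1259 ± 998 and 2654 ± 1613 CPM (SD, n = 3). In Model VS Normal the log2 fold change was -1.20 (SE 0.81, adjusted p = 0.352), and it was -0.76 without model 1 and -1.98 without model 3. In TA VS Model it was 1.08 (SE 0.87, adjusted p = 0.540).

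The fibrinogen chains were present in all livers at similar levels. Fga, the alpha chain, was at 5330.1, 4269 and 2974 CPM in the normal livers, 1417, 4224 and 4028 CPM in the model livers and 4567, 5293 and 3058 CPM in the TA livers. Fgg, the gamma chain, was at 4035, 3121 and 2053 CPM in the normal livers, 1104, 2964 and 3082 CPM in the model livers and 3249.7, 3786 and 2252 CPM in the TA livers. In both genes model 1 was low, the other model livers lay within the normal range, and the rat numbered 3 was the lowest in the normal and TA groups. Fgb, the beta chain, was at 5969, 5071 and 4987 CPM in the normal livers. It was at 1401, 3906 and 4507 CPM in the model livers and 4509.6, 4881 and 5401 CPM in the TA livers. For Fgb the rat numbered 3 was again the lowest in the normal group but the highest in the TA group. In CPM the model livers lay below all normal and TA livers for Fgb only, among the 3 chains. In FPKM the model livers (819 to 1639 for Fgb) overlapped the normal (1406 to 1743) and the TA livers (1514 to 1711). The log2 fold changes in Model VS Normal were -0.38 (SE 0.64) for Fga, -0.70 (SE 0.64) for Fgb and -0.36 (SE 0.61) for Fgg, with adjusted p-values of 0.726, 0.494 and 0.721. Without model 1 they were -0.04, -0.36 and -0.04.

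Within each liver the 3 chains could be set against one another free of the library's scaling. The ratio of Fgg to Fga, from FPKM, lay between 1.22 and 1.38 in all 9 livers, with an SD of 0.0595 on the log2 scale. The ratio held this range in model 1 as well, where Fga and Fgg were at 0.343 and 0.365 of their mean in the other model livers (in CPM). The ratio of Fgb to Fga spread further, with an SD of 0.35 on the log2 scale. It was 1.05, 1.12 and 1.58 in the normal livers, 0.931, 0.870 and 1.05 in the model livers and 0.929, 0.868 and 1.66 in the TA livers, with the rat numbered 3 highest in each group. The model and normal livers did not overlap in this ratio, although the nearest values were 1.053 and 1.054, and differed by -0.38 in mean log2. The exact permutation test gave p = 0.1, which is the smallest two-sided value that 3 against 3 allows.

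**Figure D2:**
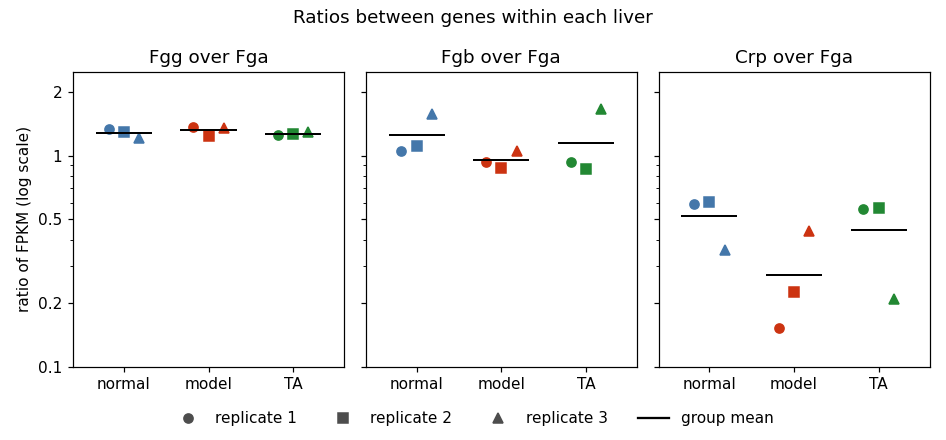
Ratios of FPKM between genes of the same liver on a log scale, for the normal, model and TA groups, with symbols for the replicate number and a line for the group mean. The Fgg to Fga ratio stays between 1.22 and 1.38, while the Fgb to Fga ratio runs from 0.868 to 1.66 and the Crp to Fga ratio from 0.152 to 0.601.

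Saa4, the constitutive serum amyloid A, was at 1351, 1032 and 1021 CPM in the normal livers, 194, 752 and 904 CPM in the model livers and 1509.9, 1377 and 1356 CPM in the TA livers. In CPM all model livers lay below all normal livers, and all TA livers lay above both. In FPKM the model (47.7 to 138) and normal livers (121 to 166) overlapped, and all TA livers again lay above both. The group means were 1135 ± 188, 617 ± 374 and 1414 ± 83.7 CPM (SD, n = 3). The log2 fold change was -0.88 (SE 0.59, adjusted p = 0.355) in Model VS Normal, 1.20 (SE 0.61, adjusted p = 0.365) in TA VS Model and 0.29 (SE 0.21, adjusted p = 0.795) in TA VS Normal. Set against Fga in the same liver, the FPKM of Saa4 was 0.0956 to 0.136 of Fga in the normal group, 0.0542 to 0.0888 in the model group and 0.103 to 0.175 in the TA group. The model livers thus lay below both other groups in this ratio too, by -0.65 log2 against the normal group and by 0.93 log2 for TA VS Model, each with an exact permutation p = 0.1. In all, 6 ratios were tested in 3 comparisons, and after Benjamini-Hochberg adjustment over these 18 exact tests the smallest p was 0.6.

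Lcn2 was the gene of the set that differed most between the groups. It had 43, 6 and 184 reads (3.57, 0.386 and 15.4 CPM) in the normal livers, 2680, 3706 and 243 reads (120, 244 and 17.2 CPM) in the model livers and 807, 199 and 100 reads (57.4, 16.8 and 7.45 CPM) in the TA livers. All model livers lay above all normal livers, but model 3 exceeded normal 3 by little. TA 1 and TA 2 lay above all normal livers and TA 3 among them, and TA 1 lay above model 3. The means were 6.46 ± 7.93, 127 ± 113 and 27.2 ± 26.6 CPM (SD, n = 3).

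In Model VS Normal the log2 fold change of Lcn2 was 4.31 (SE 1.29), with an unadjusted p of 0.0104 and an adjusted p of 0.0774 by edgeR's quasi-likelihood test. Lcn2 thereby rose by the thresholds of the study's rule (log2 fold change beyond 1 in size, unadjusted p under 0.05). The study applied this rule with DESeq2, and here it is applied to edgeR's p-values unless another tool is named. Lcn2 did not pass an adjusted p under 0.05. It met the study's rule in all 16 alternatives of test, scaling, filter and livers, among them scaling to the libraries' total reads (library totals) and to the summed reads of the 6 hepatocyte markers (hepatocyte marker scaling), with log2 fold changes from 3.43 to 6.19. Its adjusted p was under 0.05 in 5 of those 16, among them DESeq2 (0.0189), limma voom (0.0105) and the fit without model 3 (0.0237). At that threshold DESeq2 and limma voom called 2654 and 3433 of all 12730 genes, and the fit without model 3 called 2537 of 13159. The adjusted p of Lcn2 reached 0.199 without normal 1. In TA VS Model the log2 fold change was -2.22 (SE 0.99, adjusted p = 0.328), with overlapping groups. The difference met the study's rule in 8 of 16 alternatives and an adjusted p under 0.05 in 1 of them. That was hepatocyte marker scaling (log2 fold change -4.02, adjusted p = 0.00389), under which 1991 of all 12781 genes passed. Leaving out model 2 gave -1.33. In TA VS Normal the log2 fold change was 2.07 (SE 1.07, adjusted p = 0.636), with 0.90 without TA 1 and 3.80 without normal 3.

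Markers of other cells were compared between the same groups. The summed level of 8 neutrophil markers was 11.1 to 23.8 CPM in the normal group, 47.8 to 89.4 CPM in the model group and 19.7 to 34.8 CPM in the TA group, and 4 of the 6 that could be tested rose in Model VS Normal at an adjusted p under 0.05 by edgeR. The granule genes Mpo, Elane and Camp were at 0 in at least 1 normal liver. The sum of 7 macrophage markers was 343 to 532 CPM, 432 to 2195 CPM and 369 to 823 CPM in the same order of groups, and Lyz2 alone was at 1617 CPM in model 1, where the sum was highest. This list went both ways in Model VS Normal, with 4 markers above 0 and the resident macrophage markers Clec4f (-1.50), Marco (-2.17) and Cd5l (-1.14, but 0.20 with hepatocyte marker scaling) below 0. None of the 7 passed by edgeR, 4 higher and 2 lower had an unadjusted p under 0.05, and DESeq2 called 2 higher and 1 lower. Over all 12730 genes edgeR called 7.87% in that comparison at an adjusted p under 0.05, and DESeq2 called 2654. By edgeR 28.9% of all genes had an unadjusted p under 0.05. The sum of 5 biliary epithelial markers was 15.9 to 23.7 CPM, 86.2 to 159 CPM and 29.7 to 34.6 CPM, and all 5 rose in Model VS Normal. Of the stromal markers 5 were measured, at 171 to 262 CPM, 1107 to 11842 CPM and 600.1 to 1094 CPM, and 4 rose. The stromal sum was also highest in model 1. Without model 1 the median log2 fold change in Model VS Normal moved from 3.59 to 1.97 for the stromal markers. It moved from 1.01 to 0.47 for the macrophage and from 3.23 to 3.08 for the biliary markers. For the neutrophil markers it moved from 2.95 (6 tested) to 2.12 (7 tested). Within the model group, Lcn2 was highest in model 2, in which the neutrophil, macrophage and stromal sums were the lowest of the 3, and lowest in model 3, in which the biliary sum was the lowest (159, 137 and 86.2 CPM in model 1, 2 and 3). The part of these cells in the Lcn2 levels was not tested.

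**Figure D3:**
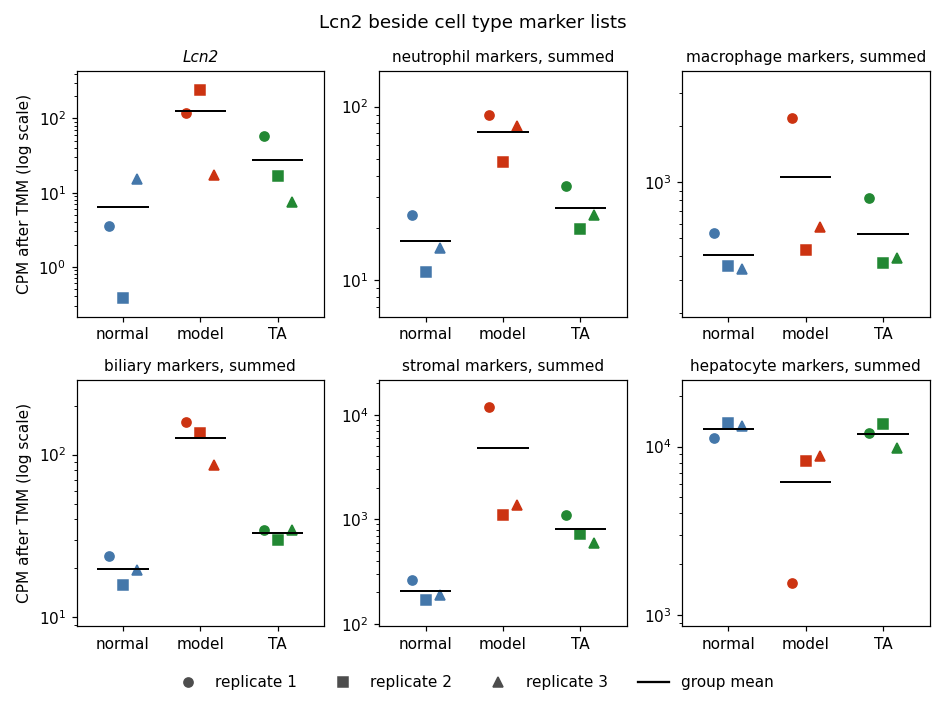
Lcn2 and the summed levels of 5 cell type marker lists in each liver, in CPM after TMM normalization on log scales that differ between panels, with the group means as lines. The model livers lie above the normal livers for Lcn2, the neutrophil, biliary and stromal sums, and below them for the hepatocyte sum, where model 1 is at 1540 CPM.

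Set side by side in Model VS Normal, 8 of the 9 tested genes had a log2 fold change below 0, but 3 of these 8 (Hpx, Fga and Fgg) turned above 0 with library totals and 7 of them with hepatocyte marker scaling, where Crp stayed below 0. The median over the 9 genes was -0.70, beside 0.02 over the 12730 genes tested, of which 49% were below 0. With library totals the median of the 9 genes was -0.21 and that of all genes 0.65, and with hepatocyte marker scaling the medians were 0.57 and 1.90. None passed an adjusted p under 0.05 in the edgeR fit, in which 7.87% of all genes did, and only Lcn2 met the study's rule, which 22.1% of all genes met (16.6% higher and 5.55% lower). At an unadjusted p under 0.05 the count was also 1 of 9, against 28.9% of all genes. In CPM after TMM the groups did not overlap for 3 genes lower in the model (Hp, Fgb and Saa4) and 1 higher (Lcn2). This was so for 17.4% of all genes lower and 20.8% higher. In FPKM the groups overlapped for Hp, Fgb and Saa4, and did not for Lcn2. Without normal 2 or without normal 3 none of the genes tested passed an adjusted p under 0.05.

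Model 1 carried much of the difference. In CPM after TMM it was the lowest of the 9 livers for all 8 tested genes other than Lcn2, at 0.159 (Crp) to 0.375 (Orm1) of the mean of the other model livers. In FPKM model 1 was not the lowest for Fgg, at 1210 against 1086 in the lowest normal liver. For Fga in FPKM model 1 was at 880, against 891 in the lowest normal liver. Without it, the log2 fold changes in Model VS Normal were -0.63 for Orm1, -0.59 for Hp, -0.12 for Hpx, -0.76 for Crp, -0.04 for Fga, -0.36 for Fgb, -0.04 for Fgg and -0.47 for Saa4, and the median over the 9 genes was -0.36. The hepatocyte marker sum was also the lowest in model 1, and all 6 hepatocyte markers had a log2 fold change below 0 in Model VS Normal (median -1.13, with 0 passing an adjusted p under 0.05 by edgeR, 1 at an unadjusted p under 0.05 and 2 by DESeq2). In hepatocyte marker scaling, where the libraries are set equal in that sum, Fga and Fgg were at 0.91 and 0.95 and Hp at 0.39. The part of hepatocyte content in the lower levels was not tested.

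**Figure D4:**
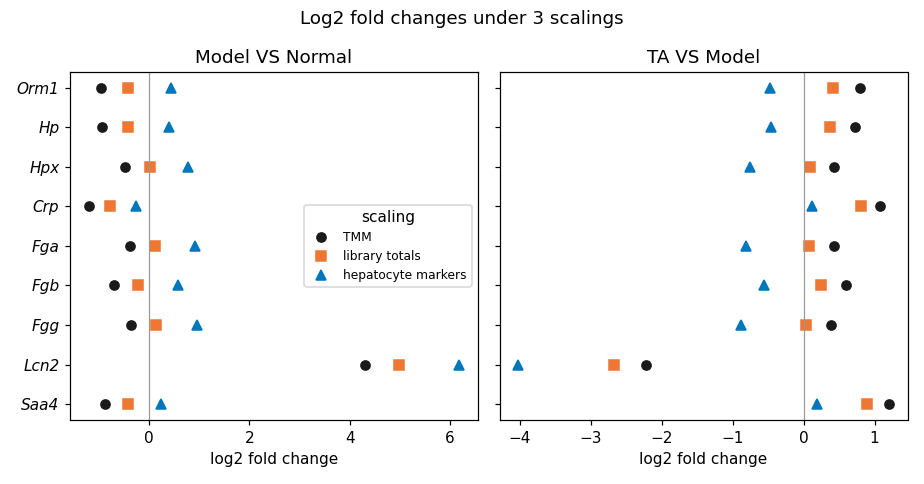
Log2 fold changes of the 9 tested genes under TMM (circles), library totals (squares) and scaling to the hepatocyte markers (triangles), for Model VS Normal and TA VS Model. In Model VS Normal 8 genes are below 0 under TMM, 5 under library totals and 1 under hepatocyte marker scaling, while Lcn2 is above 0 under all 3.

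In TA VS Model, 8 of the 9 genes had a log2 fold change above 0, from 0.38 (Fgg) to 1.20 (Saa4), with Lcn2 below 0 at -2.22, and with hepatocyte marker scaling 6 of the 8 turned below 0, leaving Crp and Saa4 above. The median was 0.60, beside -0.00 over the 12781 genes tested, and 0.24 without model 1. On this scale 49.7% of all genes were above 0. Values without model 1 ran from 0.05 for Fgg to 0.78 for Saa4. None of the 9 passed an adjusted p under 0.05 by edgeR, and none had an unadjusted p under 0.05. In the same fit 0% of all genes passed the adjusted threshold, 15.6% had an unadjusted p under 0.05 and 12.3% met the study's rule (2.11% higher and 10.2% lower), while DESeq2 called 541 genes but none of the 9 at an adjusted p under 0.05. In CPM after TMM the TA livers lay above all model livers for 3 of the 9 genes (Hp, Fgb and Saa4), which was so for 10.3% of all genes. In FPKM this held for Saa4, while Hp and Fgb overlapped. Since the 3 model livers serve both comparisons, the opposite signs of the 2 comparisons do not stand as separate evidence.

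In TA VS Normal the log2 fold changes of the 8 genes other than Lcn2 ran from -0.25 (Hp, SE 0.26) to 0.29 (Saa4, SE 0.21), and for Orm1, Hpx, Crp, Fga, Fgb and Fgg the sign depended on the scaling, on the test or on leaving out a single liver. Of the 9 genes 6 were below 0, as were 51% of all genes, and 1 was with library totals. The median over the 9 genes was -0.08, beside -0.01 over 12179 genes. None passed an adjusted p under 0.05 by edgeR, as 0.263% of all genes did, or by DESeq2, which called 360 of all genes, and none met the study's rule or had an unadjusted p under 0.05 (5.25% and 9.44% of all genes). Saa4 alone did not overlap between these groups, with all TA livers higher (1356 to 1509.9 CPM against 1021 to 1351 CPM), which was so for 9.07% of all genes. A value that misses the threshold does not show that TA and normal livers had equal levels.

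**Figure D5:**
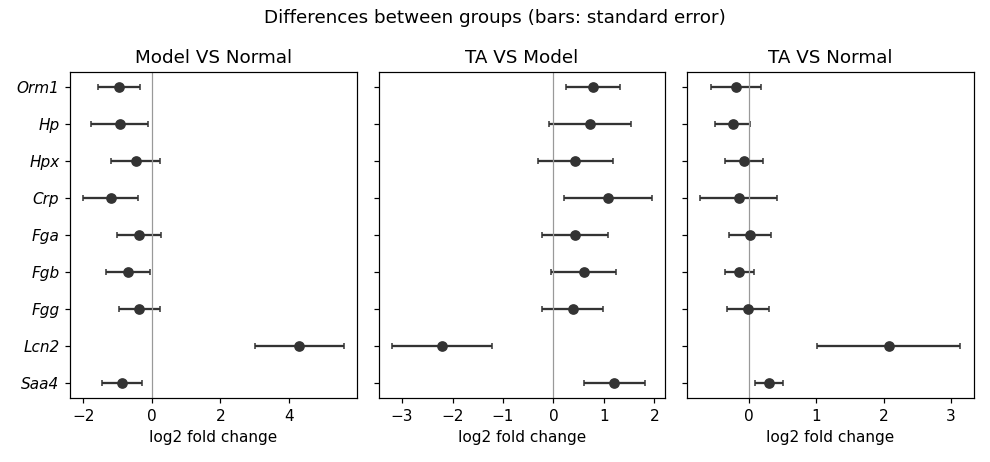
Log2 fold changes of the 9 tested genes in the 3 comparisons, with bars for the standard error of edgeR's quasi-likelihood test. Lcn2 is at 4.31, -2.22 and 2.07, and the other genes lie between -1.20 and 1.20.

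The upstream parts of the pathway were read from lists written from general knowledge. Of the cytokine ligands, Il6 had 12 reads in model 1 and at most 2 in any other liver and could not be tested. None of the 5 tested ligands (Il1a, Il1b, Osm, Ctf1 and Clcf1) passed an adjusted p under 0.05 by edgeR or DESeq2. Of them 1 (Osm) had an unadjusted p under 0.05 in Model VS Normal, beside 28.9% of all genes. The ligand Osm, oncostatin M, was at 0.830, 0.579 and 0.419 CPM in the normal livers and at 3.72, 0.921 and 1.27 CPM in the model livers, with a log2 fold change of 1.70 and an adjusted p of 0.142. Of 12 receptors and kinases 1 rose in Model VS Normal by edgeR, the oncostatin M receptor subunit Osmr, a share near the 7.87% of all genes called there. DESeq2 called 1 higher and 1 lower in this list, and 2654 of all 12730 genes. Osmr was at 1.08, 1.16 and 2.26 CPM in the normal livers, 27.9, 13.6 and 9.19 CPM in the model livers and 8.54, 3.97 and 4.47 CPM in the TA livers, so that the 3 groups did not overlap. Its log2 fold change was 3.50 (SE 0.53, adjusted p = 0.0143) in Model VS Normal, and it was above 0 under all 3 scalings. In TA VS Model Osmr was at -1.58 (adjusted p = 0.260). The interleukin 6 receptor Il6r was lower in the model livers without overlap, at 39.3, 96.5 and 83.4 CPM against 125, 152 and 110 CPM, with a log2 fold change of -0.82 and an adjusted p of 0.183, -0.30 with library totals and 0.61 with hepatocyte marker scaling.

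Among 8 transcription factors 1 fell in Model VS Normal by edgeR under TMM, the C/EBP family member Cebpb, which drives many acute phase promoters, beside 7.87% of all genes called. The calls in this list changed with the method, with 2 higher and none lower under library totals and under hepatocyte marker scaling. DESeq2 called 2 higher and 3 lower. Over all 12730 genes these settings called 1975, 3342 and 2654 in that order. Cebpb was at 654, 794 and 613 CPM in the normal livers, 215, 184 and 281 CPM in the model livers and 559, 377 and 503 CPM in the TA livers. The log2 fold change was -1.60 (SE 0.36, adjusted p = 0.0397) in Model VS Normal under TMM, -0.99 with library totals (adjusted p = 0.0832) and 0.26 with hepatocyte marker scaling. Without model 1, where the hepatocyte markers were lowest, it was -1.58 (adjusted p = 0.0277). In TA VS Model it was 1.08 (adjusted p = 0.264). Its relative Cebpa, a factor of the mature hepatocyte, was at 390, 346 and 304 CPM, 116, 148 and 196 CPM, and 374, 446 and 276 CPM in the normal, model and TA livers, and did not pass (adjusted p = 0.0654 and 0.252 in Model VS Normal and TA VS Model). Cebpd, a member of the family known to be raised in inflammation, lay above the normal livers in all model livers, at 57.9, 29.9 and 21.3 CPM against 18.5, 9.91 and 16.7 CPM, with an adjusted p of 0.0918. Nfkb1, which encodes an NF-kB subunit, was at 32.4, 27.9 and 26.4 CPM in the normal livers and 69.0, 55.2 and 41.8 CPM in the model livers, without overlap, with a log2 fold change of 0.94 (adjusted p = 0.0584). Stat3 overlapped between the groups, with a log2 fold change of 0.32 (adjusted p = 0.524).

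The inhibitors were measured for all 7 genes of their list. The decoy receptor Il1r2, which takes up interleukin 1 without signalling, rose in Model VS Normal, at 0.249, 0.257 and 0.0839 CPM in the normal livers and 7.49, 1.51 and 0.848 CPM in the model livers, with a log2 fold change of 4.004 (SE 1.0, adjusted p = 0.0495), which was 2.49 without model 1 (adjusted p = 0.0841). These normal levels were near that of 3 counts, which is 0.166 to 0.210 CPM by library totals in the normal livers. The size of this fold change is therefore uncertain, and Il1r2 was not tested in TA VS Normal. Socs3, the inhibitor induced by STAT3, overlapped between the groups, with a log2 fold change of -0.15 under TMM and 0.60 with library totals. Cish, an inhibitor induced by STAT5, was at 3.07, 1.80 and 2.35 CPM in the normal livers, 5.16, 4.01 and 3.82 CPM in the model livers and 20.3, 43.1 and 8.65 CPM in the TA livers. All TA livers lay above all others for Cish, with a log2 fold change of 2.47 (SE 0.55, adjusted p = 0.231) in TA VS Model and 3.30 (SE 0.57, adjusted p = 0.0705) in TA VS Normal. The calls of Osmr, Cebpb and Il1r2 in Model VS Normal were each lost when any 1 of the 3 normal livers was left out. The adjusted p-values by edgeR were then 0.0654 to 0.0958 for Osmr, 0.119 to 0.171 for Cebpb and 0.138 to 0.175 for Il1r2. Over all genes 51 of 13261 passed without normal 1, and 0 without normal 2 or without normal 3. The loss was therefore not particular to these genes.

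The remaining plasma proteins of the response were described by their counts. Of 21 further positive acute phase genes measured, 16 had a log2 fold change below 0 in Model VS Normal (median -0.85), 13 with library totals and 5 with hepatocyte marker scaling, and none passed an adjusted p under 0.05 by edgeR, with 2 at an unadjusted p under 0.05, while DESeq2 called 1 higher and 1 lower. Of the 14 negative acute phase genes 13 were below 0 (median -1.24), 10 with library totals and 6 with hepatocyte marker scaling. None of the negative genes passed by edgeR, with 2 at an unadjusted p under 0.05 and with 1 higher and 3 lower by DESeq2. Over all 12730 genes edgeR called 1002 and DESeq2 2654 at an adjusted p under 0.05. By edgeR 28.9% of all genes had an unadjusted p under 0.05, and 22.1% met the study's rule. Below 0 were 49% of all genes, and the median of all genes was 0.65 with library totals and 1.90 with hepatocyte marker scaling. Alb, the most abundant of the negative genes, was below all normal livers in all model livers, with a log2 fold change of -0.85 (adjusted p = 0.661), -0.36 with library totals and 0.42 with hepatocyte marker scaling. The complement gene C4b was the only one of the 21 positive genes to meet the study's rule, at 2.57, 3.22 and 0 CPM in the normal livers and 14.8, 8.42 and 12.8 CPM in the model livers, with a log2 fold change of 2.62 (adjusted p = 0.112). C4b has the close relative C4a, at 160 to 429 CPM over the 9 livers, and how reads were divided between them is uncertain. In the negative list the thyroxine carrier Serpina7 (2.80, adjusted p = 0.0628) met the rule as higher and the growth factor Igf1 (-1.42, adjusted p = 0.0694, but 0.23 with hepatocyte marker scaling) as lower. Lbp, which presents lipopolysaccharide, was at 1.25 (adjusted p = 0.179). In TA VS Model 18 of the 21 positive and 11 of the 14 negative genes were above 0, with medians of 0.63 and 0.81, and with hepatocyte marker scaling 3 and 4 were. Above 0 were 49.7% of all genes under TMM, and hepatocyte marker scaling moved the median of all genes to -1.76. Of the clearance receptors and heme oxygenase (Cd163, Lrp1, Slc22a17, Asgr1, Asgr2 and Hmox1), 0 of 6 passed by edgeR in Model VS Normal. Of these, 1 (Hmox1) had an unadjusted p under 0.05 and 1 was called by DESeq2. The heme-degrading enzyme Hmox1 was at 1089, 87.6 and 25.0 CPM in the model livers and at 45.0, 29.7 and 24.2 CPM in the normal livers, so that its log2 fold change of 3.61 (adjusted p = 0.107) rested on model 1.

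For each of these genes, the genes with the most similar profile over the 9 livers were found among 7949 candidates by the root mean square difference between log2 CPM profiles centred on their means. Pzp was the closest gene to both Fga and Fgg, at 0.0824 and 0.0790 log2 units, followed by Lrba (0.168) for Fga and Serpind1 (0.171) for Fgg. The closest to Fgb were Cmtm8 (0.107) and Cdip1 (0.113). Hp was nearest to Qprt (0.107) and Pde4dip (0.145), and Hpx to C9 (0.154) and Auh (0.170). Saa4 was nearest to Abcd3 (0.204) and Hnf4a (0.204), Orm1 to Sardh (0.267) and Polg2 (0.269), and Crp to Sec14l4 (0.349) and Slco1b2 (0.390). The nearest to Lcn2 were Bok at 1.28 and Car2 at 1.38 log2 units. This difference grows with a gene's own spread, and the profile of Lcn2 had an SD of 2.67, against 0.57 (Fgg) to 1.28 (Crp) for the others. The larger values for Lcn2 therefore do not show that it had no similar gene. These profiles share the same libraries and the low values of model 1, and the differences are a description without a test.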

How the data were processed

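Liver RNA of 9 rats had been sequenced as poly(A)-selected, paired-end libraries, and the groups and replicate numbers were taken from GEO's labels, which name the TA libraries TA1 to TA3 without a dose; these were taken as 1 group, as the design text describes. The labels number the livers but do not say how each was sampled, so that p-values measure the spread between these samples. Trimmomatic and Cutadapt (trimming), STAR (mapping) and HTSeq-count (counting per gene) were used by the authors. The methods name a human build and the processing notes name mm9, while the gene names are written as rat symbols, and 15601 of 17156 names (90.9%) matched rat symbols in RefSeq (GRCr8), from which names and promoters alone were taken. The effect of the mapping reference on the counts was not tested.

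The authors deposited 2 tables with raw counts per gene, from which every test started. The deposited FPKM values were used to compare levels between genes. The signal values that the authors deposited, counts divided by a DESeq2 size factor, were not used in tests. Columns of log2 fold changes and p-values, deposited from the authors' own comparisons, were not used. The tables list 16938 and 16948 genes, and 16730 are in both, which TA VS Normal used.

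Counts were tested with edgeR 4.0.16 (R 4.3.3) by the quasi-likelihood test, after TMM normalization and filterByExpr, on the libraries of each pair of groups. P-values were adjusted over all genes (Benjamini-Hochberg), with calls at an adjusted p under 0.05 and, after the study's methods, by the rule of a log2 fold change beyond 1 in size and an unadjusted p under 0.05. Standard errors were derived from the size of the log2 fold change and its F statistic. CPM used TMM over all 9 livers. Single ratios were compared by a two-sided exact permutation test of 3 against 3, whose smallest p is 0.1. The fit was checked on simulated data. The members and lists were chosen with earlier results of these data known. The genes named are all 10 members, some genes of the lists that passed a threshold, had the highest level or were near 0, and the 2 genes nearest to each member among those whose mean log2 CPM was 3 or more. Some list genes outside that rule (Osm, Il6r, Stat3, Socs3, Cebpd, Nfkb1, C4a, Clec4f and Lbp) were named for their role after their values were seen. Serpina3n, Kng2, Kng1l1, Spink3, Tnf, Il22 and Col1a2 were listed but not analysed here. Alternatives were DESeq2 1.42.0, limma 3.58.1 (voom with quality weights), other scalings and filters, 1 fit of all 9 livers, a block for the replicate number, and each liver left out in turn. Same-numbered rats are not stated to share a litter or a batch. The deviations of same-numbered livers from their group means correlated at r of 0.26, 0.42 and 0.50 between the TA and normal groups. Livers of different numbers correlated there at -0.45 to 0.17. No label states a pairing and 3 livers a group cannot establish one, so that the block was kept as an alternative only.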

Additional observations from a re-analysis of the deposited data

How the results depend on the processing

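Over 16 alternatives for each of the 9 tested genes (144 values a comparison), 129 values in Model VS Normal, 137 in TA VS Model and 121 in TA VS Normal kept their direction and their side of an adjusted p of 0.05, and 10, 6 and 23 changed direction. None of the 9 passed in the main fits, so that the side could change only by a new call. In TA VS Model any gene at all passed only with DESeq2 (541), limma voom (169), hepatocyte marker scaling (1991) and without model 3 (1). The counts there therefore say little beyond direction. Scaling to the hepatocyte markers and the newer form of the quasi-likelihood fit were chosen after seeing the data. With library totals, Model VS Normal became 0.0269 for Hpx, 0.12 for Fga and 0.14 for Fgg. With hepatocyte marker scaling it became 0.43 for Orm1, 0.39 for Hp, 0.78 for Hpx, 0.91 for Fga, 0.57 for Fgb, 0.95 for Fgg and 0.23 for Saa4, and TA VS Model became -0.47 for Orm1, -0.46 for Hp, -0.76 for Hpx, -0.81 for Fga, -0.56 for Fgb and -0.88 for Fgg. These scalings also moved the median of all genes, to 0.65 and 1.90 in Model VS Normal and to -0.48 and -1.76 in TA VS Model. In TA VS Normal, limma voom gave 0.29 for Orm1, 0.0225 for Hpx and -0.0125 for Fga. Library totals gave 0.00095 for Orm1, 0.12 for Hpx, 0.0214 for Crp, 0.0369 for Fgb and 0.16 for Fgg there, and hepatocyte marker scaling 0.0258 for Hpx, 0.0085 for Fgb and 0.0687 for Fgg. Fgg was at 0.0122 with all 9 livers in 1 fit and at 0.0037 with the replicate block. Leaving out 1 liver moved TA VS Normal between -0.45 and 0.36 for Orm1, -0.31 and 0.12 for Hpx, -0.55 and 0.27 for Crp, -0.19 and 0.21 for Fga, and -0.24 and 0.22 for Fgg.

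By the study's rule, Model VS Normal called 1 of the 9 genes and 2817 of all 12730. With limma voom it called 2 (Crp and Lcn2) and 2939 of all. When a liver was left out it called 1 to 2 of the 9, and 2061 to 3917 of all genes. At an adjusted p under 0.05 it called 0, but 1 (Lcn2) with DESeq2, limma voom, library totals or hepatocyte marker scaling. In that order, those settings called 2654, 3433, 1975 and 3342 of all 12730 genes. The count was 0 to 1 when a liver was left out. TA VS Model called 0 by the study's rule, 2 with DESeq2 or limma voom, 1 with library totals, no filter on low counts, all 9 livers, the replicate block or hepatocyte marker scaling, and 0 to 2 when a liver was left out. Of all 12781 genes the rule called 1571 in the main fit, 1861 with DESeq2 and 1710 with limma voom. It called 2442 with library totals, 1719 with the block and 4453 with hepatocyte marker scaling. Without the filter it called 2025 of 16948, with all 9 livers 1788 of 12998, and 792 to 2792 when a liver was left out. At an adjusted p under 0.05 TA VS Model called 0 of the 9, and 1 with hepatocyte marker scaling, which called 1991 of all 12781 genes. TA VS Normal called 0 by the study's rule, 1 with limma voom or hepatocyte marker scaling, and 0 to 1 when a liver was left out. Of all 12179 genes the rule called 640 in the main fit, 805 with limma voom and 750 with hepatocyte marker scaling. It called 522 to 918 genes when a liver was left out. The cause of these differences was not tested. The replicate block changed no other call of these genes. In TA VS Normal, where same-numbered livers correlated most, it left 0 of the 9 called. There 203 in place of 32 of all genes passed an adjusted p under 0.05. Same-numbered livers correlated at -0.06 to 0.21 in Model VS Normal and -0.04 to 0.22 in TA VS Model. Livers of different numbers correlated at -0.17 to 0.20 and -0.21 to 0.20 there. These correlations do not decide whether the numbers pair in any comparison. A2m, with 0 or 1 read a liver, was below what this depth can compare.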
